A study of Mus musculus and Homo sapiens with 12 samples.

Results

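The enzymes that modify and process transfer RNA (tRNA) were followed through human and mouse T-cell acute lymphoblastic leukaemia (T-ALL). They were taken by gene symbol: symbols starting with TRMT, NSUN, ELP, ADAT, CTU, TSEN or THG1, or with PUS and a digit, together with PUSL1, TRIT1, TRNT1, ALKBH8, QTRT1, DUS1L, DUS2, DUS3L, DUS4L, FTSJ1, METTL1 and WDR4. This gave 50 of the 11513 genes listed in the human table and 52 of the 10430 listed in the mouse table. A choice by symbol does not show that each member acts on tRNA. All 50 human members had a mouse counterpart, and Mettl1 and Adat3 were listed in mouse only. The gene of the largest Elongator subunit stands in the tables under its older symbol, IKBKAP, and was no member by this choice.

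RNA of 12 libraries was sequenced, 2 for each of 6 groups. The human groups were the T-ALL cell line KOPTK1 treated for 72 h with the gamma-secretase inhibitor (gSI) Compound E, which blocks the release of active NOTCH1, and the same line in DMSO, the solvent. The mouse groups were GFP-positive leukaemic cells sorted from spleens of C57BL/6 mice that carried secondary transplants of tumours driven by an activated NOTCH1 (delta-E). The mice had been fed for 3 weeks on diets with 0, 0.4, 0.8 or, as the control, 8 g/kg of the essential amino acid valine. The label of 1 protocol gives the intermediate doses in drinking water, so the doses serve here as ranks. Libraries of each diet are named TALL2 and TALL3, and the meaning of the names is not stated in the labels. These also do not say that libraries of a group came from separate cultures or animals. The p-values thus rest only on the spread between these libraries, and the fits share that spread over genes. KOPTK1 is a single cell line, and the mouse tumours share their activated NOTCH1 with the control diet.

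A tRNA is trimmed and spliced from a longer transcript, receives its CCA tail and carries many chemically altered bases. Changes in the anticodon loop tune how codons are read, and changes in the body of the tRNA stabilise its fold. Some of the enzymes act in mitochondria, where a separate set of tRNAs translates the respiratory chain proteins.

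Values are FPKM, fragments per kilobase of gene length, scaled to the library's depth, as deposited. The reads recovered from them numbered 22939478 to 42245079 in a human library and 14222895 to 37687253 in a mouse library. The lowest member value rested on 37 reads in human and 59 in mouse. The median length behind the values was 29957 bp over human genes and 3180 bp over mouse genes, so human FPKM are low, and levels are compared only within a table. Within the human table the order of genes by FPKM also depends on these lengths. TRMT112 had as few as 396 reads in a library over 812 bp, and ELP2 as few as 2602 over 48502 bp. With the inhibitor HES1, a NOTCH target, had 0.0253 and 0.0431 FPKM, against 6.72 and 6.19 FPKM in DMSO. Asns, a gene of the amino acid stress response, had 69.2 and 84.6 FPKM at 0 g/kg and 2.02 and 2.90 FPKM at 8 g/kg. Its libraries lay far apart between these diets, with 47.3 and 17.1 FPKM at 0.4 g/kg and 5.6 and 47.5 FPKM at 0.8 g/kg. In bulk RNA, fewer cells of a type and less RNA per cell cannot be told apart.

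The mouse promoters of 7 members are printed. They were picked, with the values and motifs known, from the members whose libraries at all 3 restricted diets lay on 1 side of both control libraries, as described further on. Of 8 such members that were lower and have a promoter entry, the 3 with an E-box and 3 of the 5 without are shown, beside Trmt1l, which was higher. Each sequence is the 250 bases before the RefSeq transcription start in GRCm38.p6, on the gene's own strand, and capitals mark the E-box CACGTG, a sequence bound by MYC and related factors. The promoters are those of Qtrt1 at chr9:21411587-21411836 (plus strand), Pus3 at chr9:35558310-35558559 (plus strand), Trmt61b at chr17:71598762-71599011 (minus strand), Trmt5 at chr12:73286712-73286961 (minus strand), Nsun2 at chr13:69611766-69612015 (plus strand), Dus3l at chr17:56764501-56764750 (plus strand) and Trmt1l at chr1:151428292-151428541 (plus strand).
Qtrt1: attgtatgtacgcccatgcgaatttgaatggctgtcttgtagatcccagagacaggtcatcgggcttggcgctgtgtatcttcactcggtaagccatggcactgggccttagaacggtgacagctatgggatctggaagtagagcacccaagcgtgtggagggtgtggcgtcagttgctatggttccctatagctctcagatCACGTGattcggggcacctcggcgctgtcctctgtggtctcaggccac
Pus3: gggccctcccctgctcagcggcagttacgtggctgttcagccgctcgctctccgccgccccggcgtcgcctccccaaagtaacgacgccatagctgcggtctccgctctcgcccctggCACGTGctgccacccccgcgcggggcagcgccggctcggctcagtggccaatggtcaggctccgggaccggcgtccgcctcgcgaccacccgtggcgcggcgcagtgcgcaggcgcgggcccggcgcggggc
Trmt61b: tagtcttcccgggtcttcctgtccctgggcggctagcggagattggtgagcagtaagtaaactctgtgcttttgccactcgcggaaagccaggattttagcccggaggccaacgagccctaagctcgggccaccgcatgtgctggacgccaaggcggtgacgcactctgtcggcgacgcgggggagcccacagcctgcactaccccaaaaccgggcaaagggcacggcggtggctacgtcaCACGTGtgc
Trmt5: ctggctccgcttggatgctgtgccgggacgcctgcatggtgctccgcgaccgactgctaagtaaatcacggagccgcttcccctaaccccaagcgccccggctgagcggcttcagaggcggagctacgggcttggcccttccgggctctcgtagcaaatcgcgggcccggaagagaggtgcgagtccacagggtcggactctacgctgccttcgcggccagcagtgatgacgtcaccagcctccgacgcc
Nsun2: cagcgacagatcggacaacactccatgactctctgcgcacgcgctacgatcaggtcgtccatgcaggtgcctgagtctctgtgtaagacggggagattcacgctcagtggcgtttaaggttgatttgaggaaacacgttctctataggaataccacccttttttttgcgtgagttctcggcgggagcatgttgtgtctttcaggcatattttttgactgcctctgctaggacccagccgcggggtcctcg
Dus3l: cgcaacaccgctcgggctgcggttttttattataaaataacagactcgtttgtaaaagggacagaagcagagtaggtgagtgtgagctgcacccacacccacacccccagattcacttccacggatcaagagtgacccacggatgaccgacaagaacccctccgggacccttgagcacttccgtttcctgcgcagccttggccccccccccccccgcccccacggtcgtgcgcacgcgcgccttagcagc
Trmt1l: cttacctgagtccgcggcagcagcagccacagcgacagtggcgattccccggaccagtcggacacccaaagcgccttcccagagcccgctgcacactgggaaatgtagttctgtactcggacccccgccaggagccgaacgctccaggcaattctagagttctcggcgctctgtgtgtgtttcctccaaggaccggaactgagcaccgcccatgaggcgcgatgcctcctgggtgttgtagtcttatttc
The E-box began 48 bases before the start of Qtrt1, 132 before that of Pus3 and 9 before that of Trmt61b, whereas Trmt5, Nsun2, Dus3l, Nsun3, Wdr4 and Trmt1l held none in this stretch. With median-of-ratios scaling Qtrt1, Pus3 and Trmt61b no longer lay wholly below the control libraries.

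A RefSeq promoter was found for 44 of the 52 mouse members. Searched over 300 bases, 250 before and 50 after the start, the E-box lay in 9 of these 44 members (20.5%), in 10.5% of the 7932 listed mouse genes with a promoter and in 7.24% of all 27025 genes. The motif reads the same on both strands. Its holders were Mettl1, Pus1, Pus3, Pus7, Pusl1, Qtrt1, Trmt61a, Trmt61b and Tsen54. The element TGATGNAA, bound by ATF4 with its partners, was searched on both strands and lay in Pus7 among the members (2.27%), against 2.08% of listed genes. Such matches are a description of the letters and not of binding.

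The first comparison asks how NOTCH inhibition changed these genes in KOPTK1. The members split: the splicing endonuclease subunit TSEN15 and several methyltransferases fell, and the subunit TSEN34 and the dihydrouridine synthase DUS1L rose. Of the 50 members, 28 had a mean of at least 1 FPKM and were tested with limma on log2(FPKM + 1). At a Benjamini-Hochberg adjusted p under 0.05, 4 members rose, 8 fell and 16 did not pass, so that 42.9% changed. Over all 6679 genes tested, 53.1% were called, 22.8% as higher and 30.3% as lower. The members' median log2 fold change was -0.07, beside -0.03 over all genes tested. Both inhibitor libraries lay below both DMSO libraries for 14 members and above them for 6, where the background was 42.4% and 33.9% of genes tested.

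**Figure D1:**
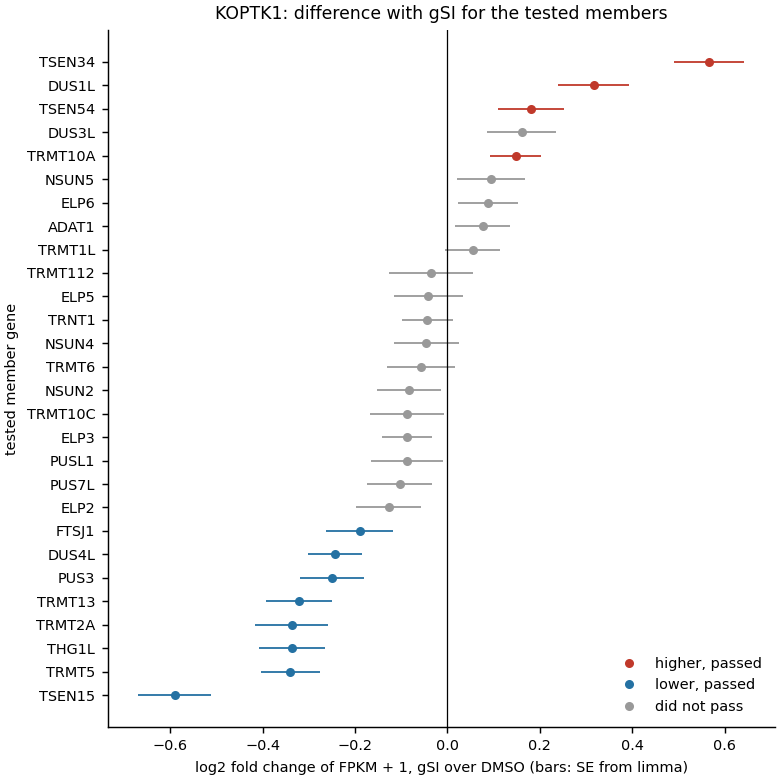
Log2 fold changes of the 28 tested members in KOPTK1, inhibitor over DMSO, on the log2(FPKM + 1) scale with standard errors from limma, ordered by size and coloured by call. TSEN34 stands highest at 0.57 and TSEN15 lowest at -0.59, and most members lie near 0.

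The changes of opposite sign met in the tRNA splicing endonuclease. It cuts introns out of precursor tRNA and includes the catalytic subunit TSEN34 and the structural subunits TSEN15 and TSEN54. TSEN15 had 4.13 and 3.86 FPKM with the inhibitor, against 6.95 and 6.12 FPKM in DMSO. It fell by 0.59 on the log2 scale (SE 0.0786, limma adjusted p = 5.3e-07), with no overlap between the groups. TSEN34 had 5.75 and 5.45 FPKM with the inhibitor, against 3.57 and 3.33 FPKM in DMSO. It rose by 0.57 (SE 0.0756, limma adjusted p = 5.5e-07), again without overlap. TSEN54 had 3.22 and 3.23 FPKM with the inhibitor and 2.78 and 2.67 FPKM in DMSO, a smaller rise of 0.18 (SE 0.0721, limma adjusted p = 0.037). At the 5′ end, THG1L adds the extra guanosine of histidine tRNA. It had 2.46 and 2.36 FPKM with the inhibitor, against 3.33 and 3.30 FPKM in DMSO, and fell by 0.34 (SE 0.0717, limma adjusted p = 0.00028). TRNT1, which adds the CCA tail, had 1.11 and 1.16 FPKM with the inhibitor and 1.20 in both DMSO libraries, a log2 fold change of -0.04 that did not pass (adjusted p = 0.539).

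**Figure D2:**
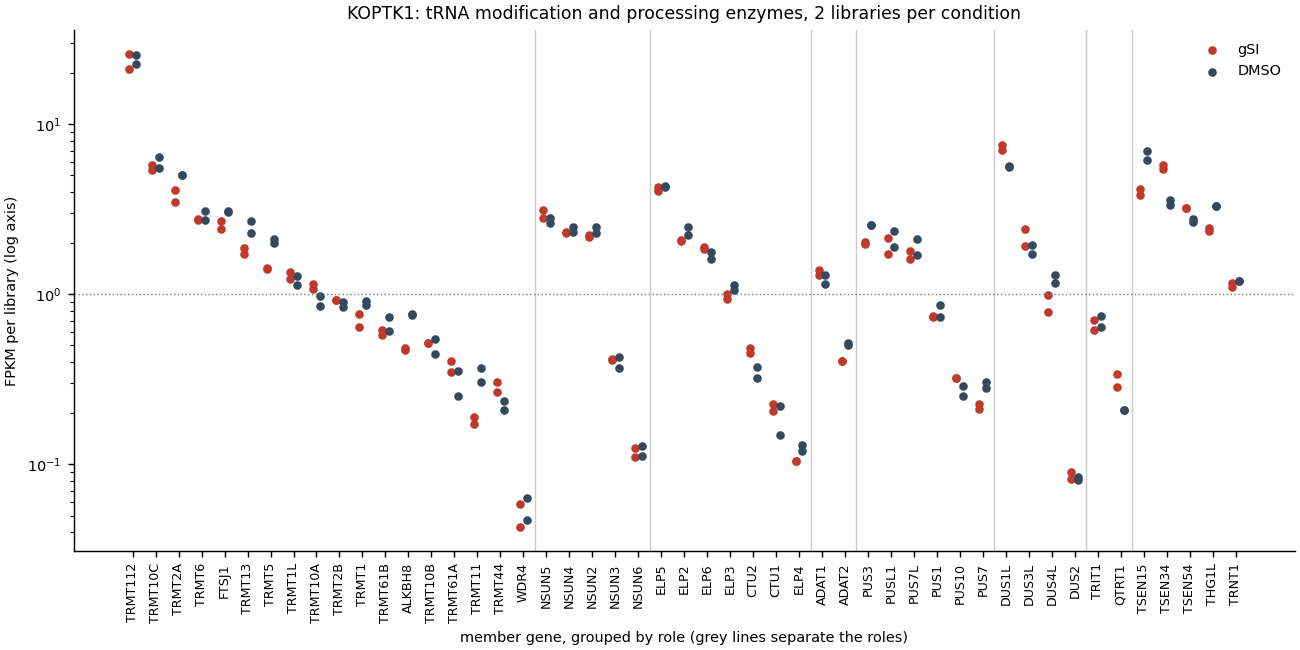
FPKM of the human members in each KOPTK1 library on a log axis, grouped by role, with the inhibitor left of DMSO in each gene and a dotted line at 1 FPKM. Points are single libraries, and TRMT112 stands highest, at 21.1 to 25.9 FPKM.

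Among the 9 tested members grouped as methyltransferases, 4 fell and 1 rose, so that 55.6% were called, beside 53.1% of all genes tested. The group includes the activator TRMT112 and the subunit TRMT6, and leaves out the NSUN enzymes. TRMT5 methylates the guanosine beside the anticodon. It had 1.42 and 1.41 FPKM with the inhibitor, against 2.10 and 2.01 FPKM in DMSO, and fell by 0.34 (SE 0.0638, limma adjusted p = 6.4e-05). TRMT2A, which makes the methyluridine of the T loop, had 3.48 and 4.12 FPKM with the inhibitor and 5.06 and 5.03 FPKM in DMSO. Its fall was also 0.34 (SE 0.0787, limma adjusted p = 0.00074). TRMT13 methylates a ribose in the acceptor stem and had 1.86 and 1.73 FPKM with the inhibitor, against 2.71 and 2.30 FPKM in DMSO. It fell by 0.32 (SE 0.0719, limma adjusted p = 0.00047). FTSJ1, a ribose methyltransferase of the anticodon loop, had 2.42 and 2.71 FPKM with the inhibitor and 3.03 and 3.10 FPKM in DMSO, a fall of 0.19 (SE 0.0732, limma adjusted p = 0.031). In these 4 genes every inhibitor library lay below both DMSO libraries. TRMT10A, a guanosine methyltransferase of the tRNA core, went the other way and had 1.15 and 1.08 FPKM with the inhibitor, against 0.974 and 0.849 FPKM in DMSO. Its rise was 0.15 (SE 0.0552, limma adjusted p = 0.026). The related mitochondrial enzyme TRMT10C overlapped between the groups, with 5.74 and 5.39 FPKM with the inhibitor and 6.45 and 5.53 FPKM in DMSO (log2 fold change -0.09, adjusted p = 0.375). TRMT112, an activator of several methyltransferases and the member with the highest human FPKM, had 21.1 and 25.9 FPKM with the inhibitor and 22.7 and 25.4 FPKM in DMSO.

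Pseudouridine synthases isomerise uridine, and dihydrouridine synthases reduce it. Of the first, 3 were tested and 1 fell. Of the second, 3 were tested, 1 rose and 1 fell, where 53.1% of all genes tested were called. PUS3, which makes pseudouridine in the anticodon stem-loop, had 1.97 and 2.04 FPKM with the inhibitor, against 2.57 and 2.56 FPKM in DMSO. It fell by 0.25 (SE 0.0688, limma adjusted p = 0.0033). The dihydrouridine synthases moved apart. DUS4L had 0.991 and 0.791 FPKM with the inhibitor and 1.30 and 1.17 FPKM in DMSO, and fell by 0.24 (SE 0.0590, limma adjusted p = 0.0010). DUS1L had 7.06 and 7.52 FPKM with the inhibitor, against 5.69 and 5.62 FPKM in DMSO, and rose by 0.32 (SE 0.0766, limma adjusted p = 0.0010). No library of 1 group reached into the other for PUS3, DUS4L or DUS1L.

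No call fell on the 3 NSUN cytosine methyltransferases, the 4 Elongator subunits or the deaminase ADAT1 that were tested. NSUN2, the main writer of methylcytosine in cytosolic tRNA, had 2.16 and 2.23 FPKM with the inhibitor and 2.48 and 2.30 FPKM in DMSO (log2 fold change -0.08, adjusted p = 0.326). ELP3, the catalytic subunit of Elongator, which begins the modification of wobble uridine, had 0.944 and 1.003 FPKM with the inhibitor and 1.14 and 1.05 FPKM in DMSO (log2 fold change -0.09, adjusted p = 0.179). The groups did not overlap for either gene, and neither difference passed.

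The calls differed in how much they rested on single libraries. The filter of 1 FPKM was applied again after each omission. TRMT10A without either inhibitor library, and DUS4L without DMSO replicate 1, averaged below it. Their calls were lost there because they were not tested. TSEN34, TSEN15, TRMT5, THG1L and TRMT13 kept an adjusted p under 0.05 whichever library was left out. Without inhibitor replicate 1 the calls of FTSJ1, PUS3, TRMT10A, TRMT2A and TSEN54 were lost, and without inhibitor replicate 2 those of DUS1L, DUS4L, FTSJ1, PUS3, TRMT10A and TSEN54. Leaving out DMSO replicate 1 lost DUS4L and FTSJ1, and leaving out DMSO replicate 2 lost FTSJ1, TRMT10A and TSEN54.

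The other 22 human members averaged under 1 FPKM, which need not mean few reads. ELP4 had at least 767 reads in each library over 274249 bp, and PUSL1, which was tested, had as few as 127 over 3110 bp. The 22 were described from fits without that filter, of which the voom fit was chosen after the data had been seen. In log2(FPKM + 1) over all 11513 genes, 6 of the 22 were lower and 3 higher, and with limma-voom on the recovered reads 7 were lower and 3 higher. Background shares for lower and higher were 24.8% and 21.9% without the filter, and 28.8% and 25.4% with voom. The fits shared 6 lower and 2 higher calls. ALKBH8, which completes the wobble uridine that Elongator begins, had 0.481 and 0.469 FPKM with the inhibitor, against 0.763 and 0.754 FPKM in DMSO. Its voom log2 fold change was -0.68 (limma-voom adjusted p = 2.9e-11). TRMT11, a guanosine methyltransferase partnered by TRMT112, had 0.172 and 0.191 FPKM with the inhibitor, against 0.370 and 0.304 FPKM in DMSO, a mean ratio of 0.538. Its voom log2 fold change was -0.87 (limma-voom adjusted p = 3.8e-11). QTRT1, which exchanges guanine for queuine at the wobble position, was higher with the inhibitor, at 0.283 and 0.338 FPKM, against 0.209 and 0.208 FPKM in DMSO (voom log2 fold change 0.58, adjusted p = 0.018). The lowest of these 4 libraries held 54 QTRT1 reads. In the voom fit the spread came almost wholly from all genes together, so its p-values say little about the spread of a gene's own libraries. In the limma fit without the filter the adjusted p was 0.00087 for ALKBH8, 0.0011 for TRMT11 and 0.0042 for QTRT1.

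Genes that act beside the members were taken as 3 lists: the threonylcarbamoylation genes with the KEOPS complex, the end-processing nucleases with the tRNA ligase, and other modifiers. In KOPTK1, 1 of 7 tested genes of the first list rose and 2 fell. In the second, 4 of 14 rose and 6 fell, and in the third 3 of 18 rose and 6 fell. Over all genes tested 22.8% rose and 30.3% fell. RPUSD1, a pseudouridine synthase relative, rose by 0.73 on the log2 scale and the KEOPS subunit LAGE3 rose by 0.61. C14orf166, a part of the tRNA ligase complex, fell by 0.57, the KEOPS subunit TPRKB fell by 0.48 and the tRNA exporter XPOT fell by 0.43.

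The second question is how the mouse members varied with dietary valine. No member passed in any comparison, in a design where no gene of the table did, and values in the restricted diets lay on 1 side of the control for a few, such as Trmt1l above it and Trmt6, Trmt5, Dus3l and Nsun2 below it. All 52 members were tested among 9943 genes, with the 4 diets fitted together. With limma, 0 members and 0.0% of all genes were called at 0, at 0.4 and at 0.8 g/kg against 8 g/kg, and limma-voom on the recovered reads also called 0. At an unadjusted p under 0.05, 1 member was higher and 2 lower at 0 g/kg, against 4.79% and 5.52% of genes. At 0.4 g/kg 2 were higher and 5 lower (3.08% and 7.57% of genes), and at 0.8 g/kg 1 was higher and 2 lower (1.15% and 3.21% of genes). The smallest adjusted p of a member was 0.420, 0.389 and 0.998 at 0, 0.4 and 0.8 g/kg.

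The members' median log2 fold change was -0.08 at 0, -0.11 at 0.4 and -0.09 at 0.8 g/kg, beside -0.01, -0.05 and -0.04 over all genes. Values below 0 were found for 37, 38 and 40 of the 52 members, beside 5188, 5864 and 5969 of the 9943 genes tested. With median-of-ratios scaling the medians were -0.07, -0.052 and -0.045, beside -0.0044, 0.00097 and 0.00083 over all genes. Values below 0 were then found for 36, 34 and 34 members, beside 5042, 4952 and 4948 of 9939 genes. Both libraries lay below both control libraries for 18 members and above them for 8 at 0 g/kg, where 22.9% and 19.1% of genes did so. Those counts were 22 and 4 for the 0.4 g/kg diet (31.8% and 16.9% of genes), and 18 and 2 for the 0.8 g/kg diet (22.5% and 10.6% of genes). These comparisons share the 8 g/kg libraries. The members together summed to 862.5 and 824.8 FPKM at 0 g/kg, 824.3 and 827.4 FPKM at 0.4 g/kg, 809.0 and 849.8 FPKM at 0.8 g/kg, and 897.2 and 876.3 FPKM at 8 g/kg. Every restricted library was thus below both control libraries in this sum, by a small part of it. Between a member's highest and lowest library the median ratio was 1.36, beside 1.45 over all genes tested.

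**Figure D3:**
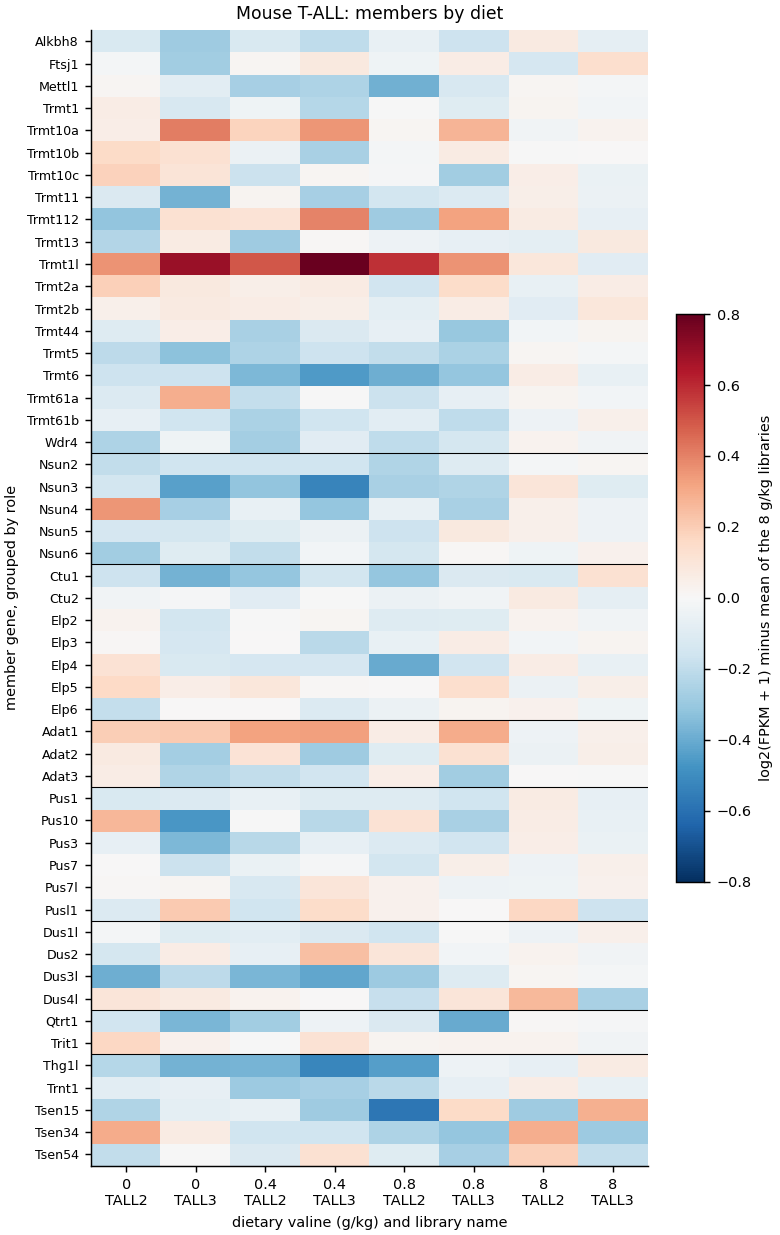
Mouse members by library, as the log2(FPKM + 1) difference from the gene's mean over the 2 libraries at 8 g/kg, with diets from 0 to 8 g/kg. For 12 members all restricted libraries lie on 1 side of both control libraries, 10 below them and 2, Adat1 and Trmt1l, above.

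All 6 restricted libraries lay below both control libraries for 10 members, 19.2% against a background of 11.4% of genes tested. These were Dus3l, Nsun2, Nsun3, Pus3, Qtrt1, Trmt5, Trmt6, Trmt61b, Trnt1 and Wdr4. They lay above both for Adat1 and Trmt1l, 3.85% of members against 4.73% of genes. With median-of-ratios scaling the lower group kept 6 members (Dus3l, Nsun2, Nsun3, Trmt5, Trmt6 and Wdr4), 11.5% against 8.54%. The higher group then held 5 members (Adat1, Elp5, Trit1, Trmt10a and Trmt1l), 9.62% against 6.73%. Mouse Pus3 shares 88.1% of its exonic bases with Hyls1 on the opposite strand, and whether counting used strand is not stated, so its values are uncertain.

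**Figure D4:**
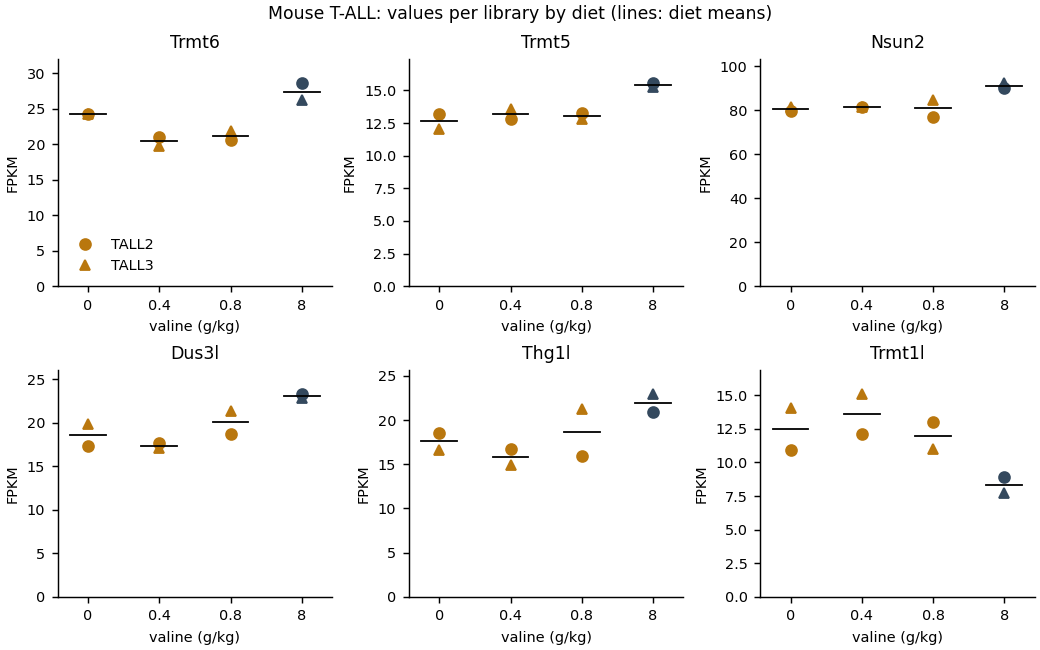
FPKM in each mouse library for members named in the diet comparisons, with diets from 0 to 8 g/kg. Points are single libraries, TALL2 and TALL3 marked apart; Trmt1l has its lowest and Dus3l its highest values at 8 g/kg.

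Trmt1l, a relative of the guanosine methyltransferase Trmt1, lies at chr1:151428542-151458161 in GRCm38. It had 10.9 and 14.1 FPKM at 0 g/kg, 12.2 and 15.1 FPKM at 0.4 g/kg, 12.99 and 10.97 FPKM at 0.8 g/kg, and 8.94 and 7.75 FPKM at 8 g/kg. All restricted libraries were above the control libraries. The log2 fold changes were 0.52, 0.64 and 0.47 at 0, 0.4 and 0.8 g/kg (SE 0.172 each), with adjusted p of 0.420, 0.397 and 0.998. Its human counterpart TRMT1L had 1.35 and 1.24 FPKM with the inhibitor and 1.28 and 1.13 FPKM in DMSO, which overlap.

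Trmt6 forms with Trmt61a the enzyme that methylates adenosine in the T loop. It had 24.2 FPKM in both libraries at 0 g/kg, 21.1 and 19.7 FPKM at 0.4 g/kg, 20.6 and 21.8 FPKM at 0.8 g/kg, and 28.6 and 26.1 FPKM at 8 g/kg. The log2 fold changes were -0.17, -0.41 and -0.35 at 0, 0.4 and 0.8 g/kg (SE 0.0875), so the valine-free diet lay nearest to the control. Trmt61a showed no such order, with 10.1 and 13.6 FPKM at 0 g/kg, 9.46 and 10.9 FPKM at 0.4 g/kg, 9.61 and 10.4 FPKM at 0.8 g/kg, and 11.1 and 10.7 FPKM at 8 g/kg. Trmt5, lower in the inhibited human cells, had 13.2 and 12.1 FPKM at 0 g/kg, 12.8 and 13.6 FPKM at 0.4 g/kg, 13.3 and 12.8 FPKM at 0.8 g/kg, and 15.5 and 15.3 FPKM at 8 g/kg. Its log2 fold changes were -0.27, -0.21 and -0.22 (SE 0.0899). None of these passed.

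Mettl1 and Wdr4 are the catalytic and the supporting subunit of the enzyme that makes methylguanosine in the variable loop. Mettl1 had 20.98 and 19.5 FPKM at 0 g/kg, 17.1 and 17.3 FPKM at 0.4 g/kg, 15.7 and 18.9 FPKM at 0.8 g/kg, and 20.9 and 20.5 FPKM at 8 g/kg. Both intermediate diets thus lay below the valine-free and the control diet, and the log2 fold changes were -0.03, -0.26 and -0.26 at 0, 0.4 and 0.8 g/kg (SE 0.109). Wdr4 had 8.65 and 10.1 FPKM at 0 g/kg, 8.46 and 9.74 FPKM at 0.4 g/kg, 8.95 and 9.36 FPKM at 0.8 g/kg, and 10.6 and 10.2 FPKM at 8 g/kg. The log2 fold changes of Wdr4 were -0.14, -0.18 and -0.17 at 0, 0.4 and 0.8 g/kg (SE 0.119) and did not pass. The SD of its libraries was 1.055 FPKM at 0 g/kg, 0.90 FPKM at 0.4 g/kg and 0.30 FPKM at 0.8 g/kg.

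Nsun2 had the highest mouse FPKM of the members, with 79.5 and 81.6 FPKM at 0 g/kg, 81.4 and 81.3 FPKM at 0.4 g/kg, 77.0 and 84.8 FPKM at 0.8 g/kg, and 90.1 and 92.1 FPKM at 8 g/kg. The log2 fold changes of -0.18, -0.16 and -0.17 (SE 0.0776) did not pass. Dus3l, a dihydrouridine synthase, had 17.4 and 19.9 FPKM at 0 g/kg, 17.7 and 17.1 FPKM at 0.4 g/kg, 18.8 and 21.4 FPKM at 0.8 g/kg, and 23.3 and 22.9 FPKM at 8 g/kg. Its log2 fold changes were -0.30, -0.39 and -0.20 (SE 0.105). Trnt1, the CCA-adding enzyme of both cytosol and mitochondria, had 29.7 and 30.1 FPKM at 0 g/kg, 25.6 and 26.2 FPKM at 0.4 g/kg, 27.1 and 30.1 FPKM at 0.8 g/kg, and 33.0 and 30.3 FPKM at 8 g/kg. The higher library of the 0.8 g/kg diet was almost level with the lower control library.

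Nsun3, which modifies cytosine in mitochondrial methionine tRNA, had 7.02 and 5.57 FPKM at 0 g/kg, 6.14 and 5.15 FPKM at 0.4 g/kg, 6.42 and 6.51 FPKM at 0.8 g/kg, and 8.49 and 7.31 FPKM at 8 g/kg. Trmt61b, the mitochondrial adenosine methyltransferase whose promoter is shown above, had 2.73 to 3.24 FPKM at the restricted diets and 3.32 and 3.57 FPKM at 8 g/kg. Thg1l, lower in the inhibited human cells, had 18.6 and 16.6 FPKM at 0 g/kg, 16.7 and 14.9 FPKM at 0.4 g/kg, 15.9 and 21.3 FPKM at 0.8 g/kg, and 20.96 and 22.96 FPKM at 8 g/kg. A single 0.8 g/kg library of Thg1l reached into the control range, and the other restricted libraries stayed below it.

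As most members did, some with high FPKM overlapped between the restricted diets and the control, though Nsun2, Trnt1 and Trmt6 did not. The Elongator subunit Elp2 had 48.4 to 54.7 FPKM at the restricted diets and 54.8 and 52.6 FPKM at 8 g/kg. Dus1l, higher in the inhibited human cells, had 34.8 to 38.9 FPKM at the restricted diets and 37.8 and 40.2 FPKM at 8 g/kg. The guanosine methyltransferase Trmt1 had 31.4 to 38.5 FPKM at the restricted diets and 37.5 and 36.3 FPKM at 8 g/kg. For the pseudouridine synthase Pus7 these values were 20.3 to 23.8 FPKM and 22.3 and 23.8 FPKM. Ctu2, the partner of Ctu1, varied least but for Elp2 among the members, with a ratio of 1.14 between its highest and lowest library, and Tsen15 varied most, with a ratio of 2.08. Ctu2 shares 47.3% of its exonic bases with Piezo1.

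The deaminases make inosine from adenosine. Adat1 had 4.44 and 4.49 FPKM at 0 g/kg, 4.93 and 4.95 FPKM at 0.4 g/kg, 3.94 and 4.82 FPKM at 0.8 g/kg, and 3.61 and 3.88 FPKM at 8 g/kg. The wobble enzyme's catalytic subunit Adat2 overlapped between diets, with 5.24 to 7.28 FPKM at the restricted diets and 6.36 and 6.83 FPKM at 8 g/kg. Its partner Adat3 had 1.15 to 1.72 FPKM at the restricted diets and 1.62 and 1.60 FPKM at 8 g/kg. Mouse Adat3 shares 38.4% of its exonic bases with Scamp4 on the same strand. Elp3 had 44.0 to 53.5 FPKM at the restricted diets and 50.5 and 52.1 FPKM at 8 g/kg, and the thiolation enzyme Ctu1 had 7.60 to 9.30 FPKM at the restricted diets and 9.26 and 11.2 FPKM at 8 g/kg. Qtrt1, the queuine enzyme with the E-box shown above, had 11.1 and 9.46 FPKM at 0 g/kg, 10.1 and 12.1 FPKM at 0.4 g/kg, 11.4 and 9.19 FPKM at 0.8 g/kg, and 12.6 and 12.4 FPKM at 8 g/kg.

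As a trend over the 4 diets ranked by falling valine, 0 of 52 members and 0.0% of genes passed in limma and in limma-voom. At an unadjusted p under 0.05, 1 member was positive and 2 were negative, against 5.9% and 6.37% of genes. Trmt1l had the highest slope, 0.17 log2 per rank (SE 0.0657, adjusted p = 0.350). Dus3l had -0.11 (SE 0.0380, adjusted p = 0.328), Thg1l -0.11 (SE 0.0527, adjusted p = 0.430) and Trmt5 -0.08 (SE 0.0305, adjusted p = 0.356).

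Marker transcripts of neutrophils and erythroid cells differed with diet in the sorted cells, and shares of cell types were not estimated. All 10 neutrophil markers were listed and summed to 545.9 and 305.8 FPKM at 0 g/kg, 12.1 and 72.4 FPKM at 0.4 g/kg, 13.5 and 6.66 FPKM at 0.8 g/kg, and 0.738 and 8.26 FPKM at 8 g/kg. The 7 listed of 10 erythroid markers summed to 1.33 and 4.70 FPKM at 0 g/kg, 27.5 to 54.3 FPKM at 0.4 and 0.8 g/kg, and 98.3 and 266.0 FPKM at 8 g/kg. The 3 listed of 6 macrophage markers summed to 4.10 to 12.5 FPKM at the restricted diets and 5.86 and 10.5 FPKM at 8 g/kg, and of 5 B-cell markers 0 were listed. The 11 T-ALL markers summed to 1873 to 3004 FPKM over the mouse libraries. In KOPTK1 the 10 listed of 11 T-ALL markers summed to 205.6 and 218.9 FPKM with the inhibitor and 347.6 and 340.2 FPKM in DMSO. Of 5 B-cell markers 2 were listed there and summed to 4.21 and 4.68 FPKM with the inhibitor and 10.4 and 10.2 FPKM in DMSO, and of the neutrophil, erythroid and macrophage markers 0 were listed. The part of these cell markers in the members' values was not tested.

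**Figure D5:**
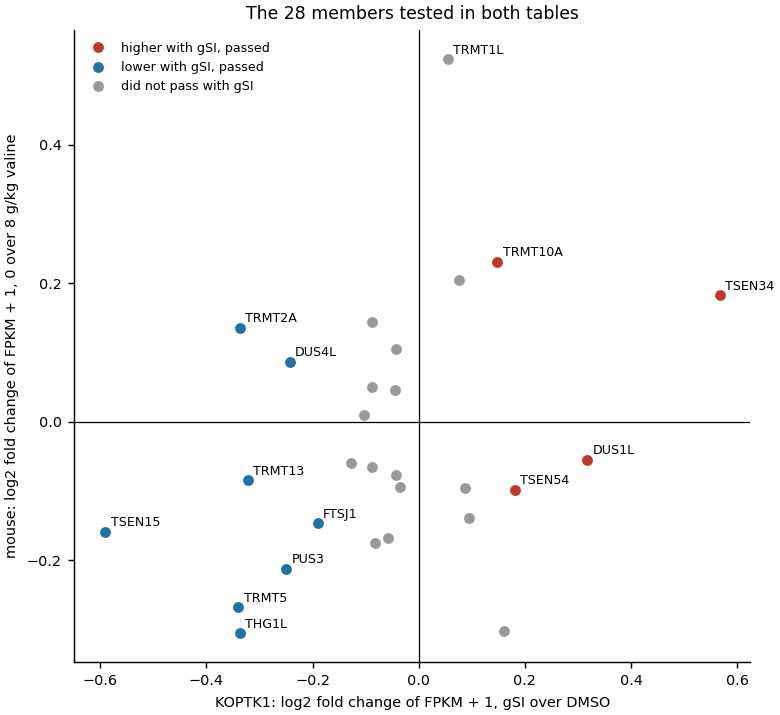
Log2 fold changes of the 28 members tested in both species, KOPTK1 inhibitor over DMSO against mouse 0 over 8 g/kg; colours mark the human call. Of the 8 members that fell in KOPTK1 6 lie below 0 in mouse, as do 17 of all 28, and none passed in mouse.

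Across the 28 members tested in both species, human and mouse differences at 0 g/kg had a Pearson r of 0.327, a description across genes that are not independent replicates. At 0.4 and 0.8 g/kg r was 0.174 and 0.101. Of the 8 members that fell with the inhibitor, 6 were below 0 at 0 g/kg, with TRMT2A and DUS4L as the exceptions, and of all 28 members 17 were below 0. Of the 4 that rose, TRMT10A and TSEN34 were above 0. TSEN15, the largest human fall, had 4.25 and 4.88 FPKM at 0 g/kg, 4.95 and 4.10 FPKM at 0.4 g/kg, 3.15 and 5.90 FPKM at 0.8 g/kg, and 4.09 and 6.55 FPKM at 8 g/kg in mouse, with libraries of a diet far apart.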

How the data were processed

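The authors deposited FPKM for each gene and library, in 1 table per species. The submitters' processing notes name STAR, edgeR, hg19 and mm10. How genes were modelled, measured in length and counted, and whether strand was used, is not given in the sources used here. FPKM values of a gene stood in whole-number ratios between libraries (relative tolerance 1e-09), from which reads were estimated. The length that follows was whole for 95.8% of human and 99.9% of mouse genes. Genes averaging 1 FPKM or more were tested two-sided on log2(FPKM + 1) in limma 3.58.1 (R 4.3.3), with its trend of variance on level. Benjamini-Hochberg adjustment ran over all genes tested of a table. Fold changes on this scale understate those of low genes.

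The members and lists were chosen with earlier results of these data known. Fold changes are given for up to 8 members per direction past an adjusted p of 0.05, otherwise for the 3 with the smallest p, and for fixed members such as NSUN2, METTL1, ELP3, TRNT1 and TRMT10C. Symbols are those of the tables. The values of 1 member are not reported here; it stays in the counts. Mouse coordinates are from GENCODE M21 (GRCm38, the assembly of mm10), and human coordinates were not analysed here. The tests were run on simulated data whose changed genes had larger fold changes than most members here. Differences as small as those of most members were not checked in this way.

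Alternatives were pseudocounts of 0.1 and 5, no filter, median-of-ratios scaling, the replicate number as a block, and leaving out each library.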

Additional observations from a re-analysis of the deposited data

How the results depend on the processing

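All 12 calls in KOPTK1 were kept with pseudocounts of 0.1 and 5, median-of-ratios scaling, the replicate block and voom. With the pseudocount of 5 the members' median log2 fold change was -0.030. Without the filter 6 members were higher and 13 lower, FTSJ1 and TRMT10A lost their calls and 9 members gained one. With limma-voom on recovered reads, chosen after seeing the data, 7 were higher and 15 lower. Both of these fits hold all 50 members. The replicate block gave 5 higher and 8 lower in KOPTK1 and 0 in mouse. Deviations of libraries with the same number correlated at 0.258 in KOPTK1. In mouse, r between 0 g/kg and 0.4, 0.8 and 8 g/kg was 0.425, 0.363 and 0.566. Between 0.8 and 8 g/kg it was 0.743, between 0.4 and 8 g/kg 0.059 and between 0.4 and 0.8 g/kg -0.174. Most diets thus shared part of the difference between TALL2 and TALL3. The main fits left the number out because the labels do not state its meaning. Leaving out each library gave 1 to 4 higher and 5 to 9 lower calls and medians of -0.10 to -0.023. In mouse, median-of-ratios scaling set the medians to -0.052 for 0.4 g/kg and -0.045 for 0.8 g/kg.

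Differences of members that had not passed changed sign in places, and the cause was not tested. Pus7 at 0.4 g/kg was 0.025 with median-of-ratios scaling. The Mettl1 slope was 0.0060 without both 0.4 g/kg libraries, also chosen after seeing the data. Leaving out single libraries, TRMT10C ranged from -0.18 to 0.0071 in KOPTK1. At 0 g/kg the ranges were Pus7 from -0.17 to 0.0054, Adat2 from -0.27 to 0.074, Adat3 from -0.24 to 0.059, Mettl1 from -0.086 to 0.017, Elp3 from -0.14 to 0.0065 and Trmt61a from -0.11 to 0.29. At 0.4 g/kg the ranges were Pus7 from -0.074 to 0.013, Adat2 from -0.28 to 0.11, Elp3 from -0.22 to 0.0019 and Trmt10c from -0.17 to 0.016. At 0.8 g/kg the ranges were Pus7 from -0.15 to 0.047, Adat2 from -0.097 to 0.12, Adat3 from -0.28 to 0.055 and Elp3 from -0.057 to 0.061. In the trend the ranges were Mettl1 from -0.049 to 0.021 and Trmt61a from -0.035 to 0.058. WDR4 in KOPTK1 rested on as few as 37 reads in a library.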

Other observations

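TALL2 and TALL3 kept the same order in all 4 diets for some members, in shares no higher than over all genes tested. TALL2 was higher than TALL3 in all 4 diets for Alkbh8, Nsun4, Pus10, Trmt1 and Tsen34, 9.62% of members and 9.85% of genes tested. Pus10, a pseudouridine synthase, had 36.7, 30.4, 32.9 and 31.7 FPKM in TALL2 at 0, 0.4, 0.8 and 8 g/kg, and 21.7, 25.9, 25.2 and 29.1 FPKM in TALL3. TALL3 was higher in all 4 diets for Adat1, Nsun6 and Trmt10a, 5.77% of members and 13.5% of genes tested.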
